A study of Mus musculus with 12 samples.

Results

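S100 proteins and annexin partners were measured in 12 RNA-seq libraries of small intestinal dendritic cells (DCs), as 10 listed genes out of the 53801 in the count files. The list held S100a1, S100a4, S100a6, S100a8, S100a9, S100a10, S100a11, S100a13, Anxa1 and Anxa2, and all 10 were among the 20580 genes that reached 5 counts in at least 1 sample and were tested. These genes were picked by name with earlier results of the same samples known, so the adjusted p-values below describe the fit over all genes and are no independent evidence for the list. CD103+CD11b- and CD103-CD11b+ DCs came from mice labelled WT or Cbfb-cKO, all of mixed background strain, with 3 samples in each of the 4 groups, to ask what loss of Cbfb changes in each subset. Cbfb-cKO mice had the genotype CbfbF/F:CD11c-Cre, in which Cre recombinase made from the CD11c promoter removes the floxed Cbfb gene in DCs and, by the study's account, also acts to some extent in T cells. The sources used here do not state, for these libraries, the age of the mice or whether the WT mice carried the Cre transgene. The study defined gut DCs as CD45+CD64-CD11c+MHC-II+ cells, a gate that would leave out CD64+ macrophages and CD45- stromal and epithelial cells, and took the 3 samples of a group from different mice. Bulk libraries cannot tell fewer cells of one type from less RNA per cell.

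S100 proteins are small calcium-binding proteins of the EF-hand type, which mostly work as dimers that open up and grip a partner when calcium rises. Annexins bind phospholipid membranes in a calcium-dependent way, and several are clamped in place by an S100 dimer. The best known pair is S100a10 with Anxa2, a membrane complex that binds plasminogen and tissue plasminogen activator, and S100a11 pairs with Anxa1 in a similar manner. S100a8 and S100a9 form calprotectin, the abundant cytosolic protein of neutrophils that is used as a stool marker of gut inflammation. S100a4 and S100a6 are found in many motile cells and bind myosin and calcyclin-binding protein respectively. Anxa1 is a glucocorticoid-induced protein that acts on formyl peptide receptors when released.

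Libraries held between 2161929 and 5863484 counts on genes. The 10 members took from 0.0226% to 0.0474% of them, so that S100a4, S100a8 and S100a9 rested on few counts. Levels are given as CPM, counts relative to library size scaled by the trimmed mean of M values (TMM), and differences as log2 fold changes from edgeR's quasi-likelihood test in 1 model of the 4 groups. A gene is said to differ where its Benjamini-Hochberg adjusted p (FDR) was under 0.05 and its fold change over 1.3. Whole-gene counts of Cbfb overlapped between the genotypes. Its level in CD103+CD11b- DCs was 228, 216 and 199 CPM in WT samples and 221, 215 and 290 CPM in Cbfb-cKO samples, and in CD103-CD11b+ DCs it was 184, 161 and 217 CPM against 180, 170 and 273 CPM. Groups are therefore named as labelled. Markers of the subsets followed the labels: Xcr1, the chemokine receptor of cDC1s, lay between 384 and 680 CPM in the 6 CD103+CD11b- samples and between 4.0 and 73.9 CPM in the 6 CD103-CD11b+ samples, and Itgam, which encodes CD11b, lay between 3.66 and 11 CPM and between 77.9 and 222 CPM.

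All 8 S100 members lie on mouse chromosome 3 (GRCm38), S100a1, S100a13, S100a4, S100a6, S100a8 and S100a9 in one stretch from 90511034 to 90695721 and S100a11 and S100a10 further along from 93520488 to 93564643. Anxa1 lies on chromosome 19 (20373428 to 20390944, minus strand) and Anxa2 on chromosome 9 (69453620 to 69491795, plus strand). S100a1 and S100a13 are transcribed away from each other from starts 42 bases apart. S100a4 ends 6836 bases before S100a6 begins on the same strand, with S100a5 between them. Because Cbfb is the partner through which RUNX proteins bind DNA firmly, the 250 bases upstream of the RefSeq start (GRCm38.p6, 9 of the 10 members found) were searched for the RUNX core letters TGTGGT or TGCGGT on both strands. The window of S100a6 held 3 matches, those of S100a1 and S100a9 held 1 each, and those of the other 6 members held 0. Of 32851 promoter windows of the same length, 18.6% held at least 1 match and 0.161% held 3 or more. The windows of S100a6 at chr3:90612644-90612893, of nearby S100a4 at chr3:90603520-90603769 (both plus strand) and of S100a9 at chr3:90695722-90695971 (minus strand) are shown 5′ to 3′ up to the start, with the matches in capitals, because S100a6 was the member that differed most between genotypes.
S100a6: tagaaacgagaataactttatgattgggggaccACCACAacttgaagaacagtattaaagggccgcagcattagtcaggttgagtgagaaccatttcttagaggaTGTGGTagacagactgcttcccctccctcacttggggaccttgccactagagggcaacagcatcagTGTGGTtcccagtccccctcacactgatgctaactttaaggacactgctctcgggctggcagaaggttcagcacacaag
S100a4: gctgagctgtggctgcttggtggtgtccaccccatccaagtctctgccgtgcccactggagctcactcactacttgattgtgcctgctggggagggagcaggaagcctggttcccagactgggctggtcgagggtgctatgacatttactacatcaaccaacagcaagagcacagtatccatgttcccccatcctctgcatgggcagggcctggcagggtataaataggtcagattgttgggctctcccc
S100a9: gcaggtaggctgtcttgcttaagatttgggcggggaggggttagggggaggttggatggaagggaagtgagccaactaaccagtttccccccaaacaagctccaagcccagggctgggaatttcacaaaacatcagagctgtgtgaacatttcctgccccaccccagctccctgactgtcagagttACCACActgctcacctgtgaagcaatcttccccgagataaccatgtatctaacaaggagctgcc
The matches of S100a6 begin 217, 145 and 79 bases before the start, the first on the minus strand. Such letters are a description of the sequence, and no binding was measured here.

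Levels between genes were set side by side per kb of exon. In WT CD103+CD11b- DCs the order was led by Anxa1 at 43.4 ± 2.79 CPM per kb (SD, n = 3) and S100a11 at 41.6 ± 7.84, which did not differ beyond their spread, followed by S100a6 at 28.9 ± 10.7 and Anxa2 at 27.0 ± 1.19. S100a13 at 16 ± 1.94, S100a1 at 12.3 ± 3.42, S100a10 at 9.46 ± 1.69 and S100a4 at 6.06 ± 0.913 CPM per kb came next, and S100a8 and S100a9 had no count. WT CD103-CD11b+ DCs had another order. Anxa2 at 54.0 ± 11.9, S100a11 at 48.3 ± 8.42, S100a6 at 46.5 ± 5.9 and S100a10 at 45.5 ± 14.1 CPM per kb stood at the top within each other's spread, Anxa1 followed at 28.5 ± 1.92 and S100a13 at 19.1 ± 5.51, and the other 4 genes lay at 13.4 CPM per kb or below. In Cbfb-cKO CD103+CD11b- DCs S100a6 stood 7th of 10, at 2.88 ± 1.17 CPM per kb, between S100a10 at 7.69 ± 2.54 and S100a4 at 1.01 ± 1.76. In Cbfb-cKO CD103-CD11b+ DCs S100a11 at 44.1 ± 10.2 and Anxa2 at 39.2 ± 7.39 CPM per kb came first, ahead of S100a10 at 29.1 ± 0.942, S100a6 at 21.4 ± 2.0 and Anxa1 at 16 ± 6.16. The order depends on the length used: by the longest transcript in place of all exons, S100a11 moved from rank 2 to rank 4 in WT CD103+CD11b- DCs and from rank 2 to rank 5 in WT CD103-CD11b+ DCs.

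**Figure D1:**
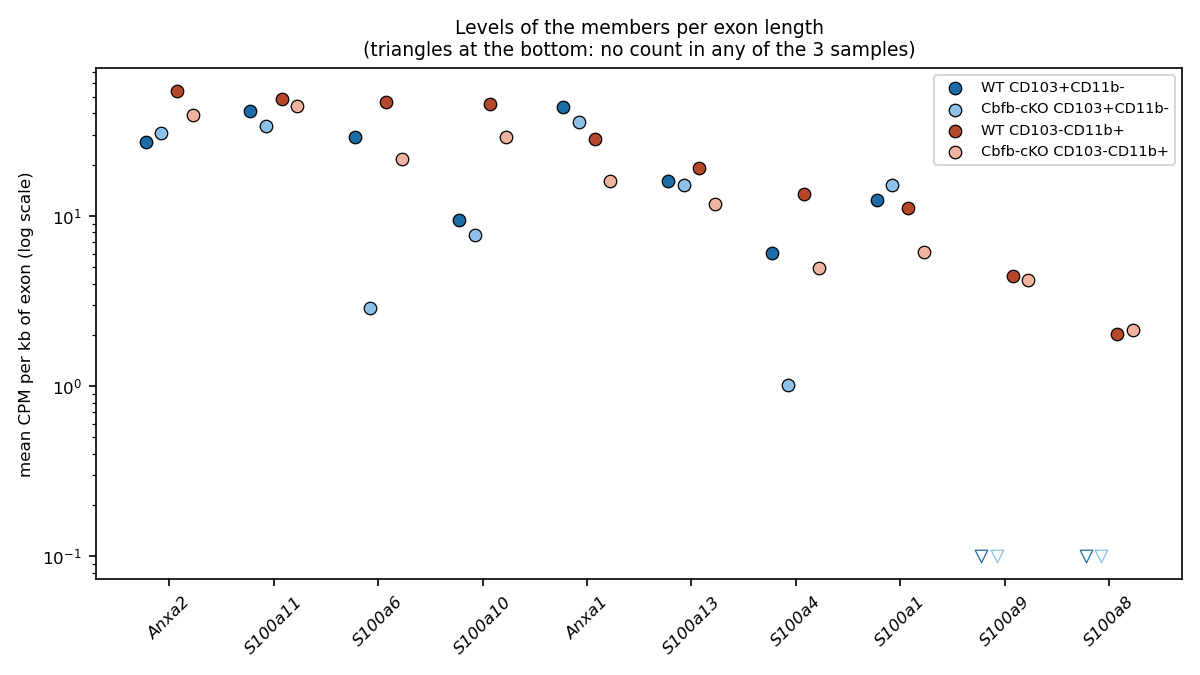
Mean level of each member in the 4 groups in CPM per kb of exon on a log axis, with 1 point per group of 3 samples, ordered by WT CD103-CD11b+ DCs; triangles at the bottom mark groups without a count. S100a6 spans the widest range among the members with counts in all 4 groups, from 2.88 to 46.5 CPM per kb, and S100a8 and S100a9 have counts in CD103-CD11b+ DCs only.

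S100a6 (calcyclin) differed between the genotypes in CD103+CD11b- DCs. Its level was 55.7, 35.7 and 27.2 CPM in the 3 WT samples and 5.5, 3.9 and 2.3 CPM in the 3 Cbfb-cKO samples. Every Cbfb-cKO sample lay below every WT sample. S100a6 fell by 3.27 on the log2 scale (standard error 0.32, 95% interval -3.97 to -2.56, edgeR FDR = 0.00177), from a mean of 39.5 ± 14.7 CPM (SD, n = 3) to 3.93 ± 1.60, and stood 7th of all genes by p in this comparison. It was the 1 member of 10 that differed here, where 1.02% of all tested genes did and 0.797% were lower. Leaving out each of the 12 samples in turn gave log2 fold changes from -3.60 to -2.94, and the call held each time.

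The level of S100a6 in CD103-CD11b+ DCs was 64.8, 55.0 and 71.0 CPM in WT samples and 29.2, 26.6 and 32.1 CPM in Cbfb-cKO samples. The groups did not overlap, yet the log2 fold change of -1.12 (95% interval -1.74 to -0.50) missed the threshold with FDR = 0.0717. It passed with DESeq2, with a stricter filter on low counts and with the replicate number as a block, with FDRs of 0.00679, 0.0374 and 0.0386. The difference of the genotype effect between the subsets was 2.14 on the log2 scale (95% interval 1.23 to 3.06, edgeR FDR = 0.0494), in the sense of a smaller fall in CD103-CD11b+ DCs, and 0.651% of all tested genes differed in this way. That call was close to the limit: leaving out single samples gave 1.82 to 2.48 with FDRs up to 0.142, and it held without WT CD103+CD11b- replicate 3 alone among the 12. With RLE scaling the value was 2.12 with FDR = 0.0559, and with replicate blocks set within genotype it was 2.10 with FDR = 0.058.

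Between the subsets, S100a6 did not differ in WT mice (log2 fold change 0.69, edgeR FDR = 0.101), although each CD103-CD11b+ value but 1 lay above the highest CD103+CD11b- value of 55.7 CPM. Without WT CD103+CD11b- replicate 1, which holds that value, it was 1.02 with FDR = 0.046. In Cbfb-cKO mice it was higher in CD103-CD11b+ DCs by 2.84 on the log2 scale (95% interval 2.13 to 3.54, edgeR FDR = 0.000177), and the lowest of them, 26.6 CPM, was far above the highest CD103+CD11b- value of 5.5 CPM. Among the 4 groups the Cbfb-cKO CD103+CD11b- samples were thus the ones apart, while the other 9 samples lay between 26.6 and 71.0 CPM.

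Genes that mark cDC2s moved with S100a6 in CD103+CD11b- DCs. Of the 7 listed, 4 were lower in Cbfb-cKO samples: Sirpa, a cDC2 surface receptor, by a log2 fold change of -2.74 (edgeR FDR = 0.042), the transcription factor gene Irf4 by -1.78 (FDR = 0.0241), the lectin gene Cd209a by -2.80 (FDR = 0.047) and Clec4a4 by -4.27 (FDR = 0.0049). The summed level of the 7 genes ranged from 372 to 633 CPM in WT and from 84.5 to 137 CPM in Cbfb-cKO CD103+CD11b- samples, against 985 to 1658 CPM in the CD103-CD11b+ samples. Itgam did not fall with them, at 4.8, 3.7 and 4.5 CPM in WT and 6.0, 11 and 7.4 CPM in Cbfb-cKO samples, and no marker of the 7 was at 0 in any of the 4 groups. Mgl2 had means of 8.16 and 6.89 CPM. In CD103-CD11b+ DCs, where S100a6 values were also lower in Cbfb-cKO samples, the 7 genes did not fall as a set. Their median log2 fold change was -0.01 there, and edgeR called 1 higher (Clec4a4, with means of 11.6 CPM in WT and 38.1 CPM in Cbfb-cKO samples) and 0 lower. In CD103+CD11b- DCs Epcam, an adhesion gene from the epithelial list, was also lower (log2 fold change -1.88, edgeR FDR = 0.0432), as the 1 gene of 10 on that list that passed. The median log2 fold change of that list was 1.74, Vil1, Krt19, Krt20 and Fabp1 had values above 0 at an unadjusted p under 0.05, and its summed level was 55.0 to 62.9 CPM in WT and 22.6, 96.2 and 21.1 CPM in Cbfb-cKO samples. Replicate 2 alone was above the WT samples in this sum, and the other 2 were below them. Monocyte genes had summed levels of 261 to 310 CPM in WT and 144 to 224 CPM in Cbfb-cKO CD103+CD11b- samples, and T and NK cell genes of 102 to 189 and 51.3 to 61.5 CPM (Cd8b1 means of 128 and 30.2 CPM), with no gene of either list past edgeR's test. Of the stromal list Pecam1 and Cdh5 had an unadjusted p under 0.05, and DESeq2 called Pecam1. The part of cells carrying these genes in the S100a6 result was not tested.

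**Figure D2:**
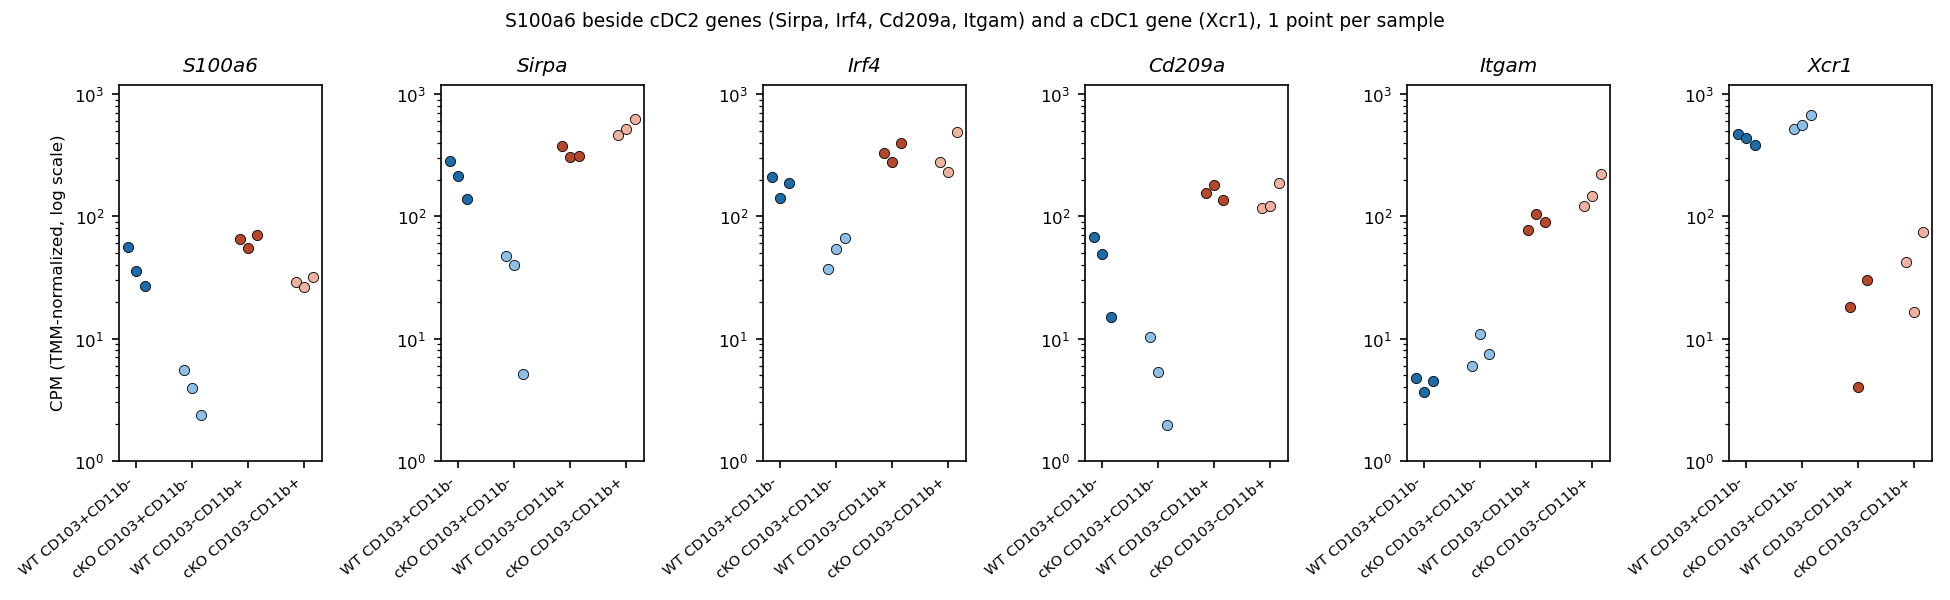
S100a6 beside the cDC2 genes Sirpa, Irf4, Cd209a and Itgam and the cDC1 gene Xcr1 in CPM on a log axis, 1 point per sample in each of the 4 groups. In CD103+CD11b- DCs the 3 Cbfb-cKO points of S100a6, Sirpa, Irf4 and Cd209a lie below the 3 WT points, whereas those of Itgam and Xcr1 lie above them.

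S100a4 (also called metastasin), which lies near S100a6, was a low gene with the same direction in both subsets. In CD103+CD11b- DCs it was 3.4, 4.1 and 3.1 CPM in WT samples, from 10, 18 and 19 counts, and 1.8, 0 and 0 CPM in Cbfb-cKO samples, from 8, 0 and 0 counts. Its level in CD103-CD11b+ DCs was 8.2, 7.7 and 7.6 CPM in WT samples and 4.5, 2.6 and 1.5 CPM in Cbfb-cKO samples. WT and Cbfb-cKO values did not overlap in either subset, but neither difference passed the threshold (log2 fold change -2.35, edgeR FDR = 0.319, and -1.38, FDR = 0.36). Without Cbfb-cKO CD103+CD11b- replicate 1, the sample with all 8 counts of its group, the remaining 2 samples were at 0 and the FDR was 0.0314. The subsets did not overlap in WT mice either, where the log2 fold change of CD103-CD11b+ over CD103+CD11b- DCs was 1.14 (edgeR FDR = 0.3). In Cbfb-cKO mice it was 2.11 (edgeR FDR = 0.124), and it passed with DESeq2 (FDR = 0.0403) and without Cbfb-cKO CD103+CD11b- replicate 1 (FDR = 0.0032). Of its 584 exon bases, 302 are shared on the same strand with the annotated readthrough gene Gm42674, to which no count was given in any sample. How reads on the shared bases were assigned was not measured, so the level of S100a4 is uncertain. Pearson's r of log2 CPM between S100a4 and S100a6 was 0.91 over the 12 samples and 0.48 after the group means were taken off, which is given as a description of samples that share their groups.

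S100a10 (p11) and Anxa2 were the 2 members that differed between the subsets in WT mice, where 18.8% of all tested genes did. S100a10 was 9.2, 11.9 and 13.3 CPM in CD103+CD11b- DCs and 36.8, 70.6 and 57.9 CPM in CD103-CD11b+ DCs. It was higher in CD103-CD11b+ DCs by 2.25 on the log2 scale (95% interval 1.61 to 2.89, edgeR FDR = 0.000864) without overlap. Anxa2 was 106, 97.0 and 99.6 CPM in CD103+CD11b- DCs and 152, 239 and 214 CPM in CD103-CD11b+ DCs, and was higher by 1.0 (95% interval 0.55 to 1.45, edgeR FDR = 0.00957), also without overlap. Without WT CD103+CD11b- replicate 2 the value of Anxa2 was 0.93 with FDR = 0.0541.

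In Cbfb-cKO mice S100a10 kept this difference and Anxa2 did not pass the test. S100a10 was 5.8, 11.2 and 11 CPM in CD103+CD11b- DCs and 34.1, 36.4 and 35.2 CPM in CD103-CD11b+ DCs, higher by 1.93 (95% interval 1.28 to 2.58, edgeR FDR = 0.00123). Anxa2 was 99.0, 97.9 and 147 CPM against 136, 125 and 177 CPM, a log2 fold change of 0.35 (95% interval -0.10 to 0.80, edgeR FDR = 0.264) with overlapping groups. A change of the subset difference with genotype did not pass the test for either gene (log2 difference -0.32, edgeR FDR = 0.883, and -0.65, FDR = 0.439).

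Between genotypes neither gene of the pair passed. The 3 Cbfb-cKO values of S100a10 in CD103-CD11b+ DCs lay just below the lowest WT value of 36.8 CPM (log2 fold change -0.64, edgeR FDR = 0.262), and those of Anxa2 overlapped with WT (-0.46, FDR = 0.273). The log2 fold changes in CD103+CD11b- DCs were -0.32 (edgeR FDR = 0.834) and 0.18 (FDR = 0.879). The ratio of S100a10 to Anxa2, each per kb of exon, was 0.269, 0.378 and 0.410 in WT and 0.179, 0.353 and 0.230 in Cbfb-cKO CD103+CD11b- DCs. It was 0.745, 0.911 and 0.833 in WT and 0.772, 0.895 and 0.610 in Cbfb-cKO CD103-CD11b+ DCs, so that the subsets did not overlap in either genotype and the genotypes did in both subsets. Stromal and endothelial genes also ran higher in the CD103-CD11b+ sort, with a summed level of 9 genes from 883 to 2296 CPM in WT samples against 198 to 767 CPM, and macrophage genes with a sum of 8 genes from 156 to 408 CPM against 14.9 to 33.0 CPM. Monocyte genes (a sum of 7 genes from 586 to 1438 CPM against 261 to 310 CPM) and epithelial genes (112 to 179 CPM against 55.0 to 62.9 CPM) did so as well, as did B-cell genes (a sum of 6 genes from 308 to 545 CPM against 182 to 269 CPM). The sum of 7 T and NK cell genes was 13.5 to 99.3 CPM against 102 to 189 CPM, with Cd8b1 the 1 gene that passed (lower, with means of 9.69 and 128 CPM) and a median log2 fold change of 1.05 over the list. Of the monocyte genes Fn1 made up most of the higher sum (means of 704 and 36.8 CPM), 3 passed as higher, Ly6c2 passed as lower (11.5 and 40.1 CPM), and Chil3 was at 0 in every sample. Of the macrophage genes Fcgr1, the gene of CD64, passed as higher in both genotypes. Its means were 7.56 against 0.276 CPM in WT and 6.44 against 0.163 CPM in Cbfb-cKO mice. In Cbfb-cKO mice these sums in CD103-CD11b+ and CD103+CD11b- samples were 366 to 2080 against 123 to 410 CPM (stromal), 305 to 511 against 13.5 to 65.4 CPM (macrophage), 420 to 829 against 144 to 224 CPM (monocyte), 377 to 706 against 91.4 to 345 CPM (B cell, with Cd79a, Cd79b and Ms4a1 higher by edgeR's test), 15.3 to 110 against 51.3 to 61.5 CPM (T and NK cell) and 40.7 to 67.3 against 21.1 to 96.2 CPM (epithelial). Their part in the differences of S100a10 and Anxa2 was not tested.

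Anxa1 ran the other way, with lower levels in the CD103-CD11b+ sort. It was 117, 132 and 130 CPM in WT CD103+CD11b- DCs and 79.3, 80.0 and 89.3 CPM in WT CD103-CD11b+ DCs. The groups did not overlap, and the log2 fold change of -0.61 (95% interval -1.20 to -0.02) had an edgeR FDR of 0.134. It passed in 3 of 8 alternative settings, with FDR = 0.0238 in a fit to these 6 samples alone, 0.0444 with the replicate number as a block and 0.00584 with that block within genotype. In Cbfb-cKO mice Anxa1 was 88.5, 75.2 and 146 CPM against 35.0, 37.6 and 67.3 CPM, lower in CD103-CD11b+ DCs by a log2 fold change of -1.16 (95% interval -1.77 to -0.56, edgeR FDR = 0.0151). That call was lost on leaving out Cbfb-cKO CD103+CD11b- replicate 3 (-0.83, FDR = 0.054), CD103-CD11b+ replicate 1 (-1.03, FDR = 0.0576) or CD103-CD11b+ replicate 2 (-1.03, FDR = 0.0645).

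Genotypes of Anxa1 did not overlap in CD103-CD11b+ DCs, where every Cbfb-cKO value lay below 79.3 CPM, the lowest WT value. The log2 fold change was -0.85 (95% interval -1.45 to -0.24) with an edgeR FDR of 0.144. With the replicate number as a block it was -0.89 with FDR = 0.0403. The groups overlapped in CD103+CD11b- DCs (log2 fold change -0.29, edgeR FDR = 0.83). Replicate 3 was the highest Cbfb-cKO sample in both subsets for Anxa1 and for Anxa2, and r between these 2 genes was -0.20 over the 12 samples and 0.74 within groups.

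S100a1, best known from heart muscle, and S100a13, a partner of exported growth factors, share a start region. S100a1 was 6.5, 8.0 and 11.2 CPM in WT and 13.1, 9.0 and 9.4 CPM in Cbfb-cKO CD103+CD11b- DCs, and 7.8, 9.3 and 6.1 CPM in WT and 2.7, 5.0 and 5.1 CPM in Cbfb-cKO CD103-CD11b+ DCs. The last group lay below all others. In Cbfb-cKO mice S100a1 was lower in CD103-CD11b+ than in CD103+CD11b- DCs (log2 fold change -1.32, 95% interval -2.08 to -0.56, edgeR FDR = 0.0249). The difference between genotypes in CD103-CD11b+ DCs did not pass (-0.88, edgeR FDR = 0.227), nor did that of the genotype effects (-1.17, FDR = 0.385). The call between subsets was lost without replicate 1 of either Cbfb-cKO group, with FDRs of 0.102 for CD103+CD11b- and 0.0725 for CD103-CD11b+ DCs.

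S100a13 was 12, 9.8 and 12.4 CPM in WT and 12.6, 10.7 and 9.4 CPM in Cbfb-cKO CD103+CD11b- DCs. The values in CD103-CD11b+ DCs were 9.6, 14 and 17.5 CPM in WT and 9.0, 9.5 and 6.6 CPM in Cbfb-cKO samples. The 2 genotypes touched but did not overlap in the latter subset, and the log2 fold change of -0.69 (95% interval -1.28 to -0.09) had an edgeR FDR of 0.226. No comparison of S100a13 passed the threshold. Over the 12 samples r between S100a1 and S100a13 was 0.40, and within groups it was -0.09.

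S100a11, the partner of Anxa1, had levels from 15.1 to 29.7 CPM over the 12 samples. Its level ranged from 17.8 to 25.6 CPM in WT and 15.1 to 20.3 CPM in Cbfb-cKO CD103+CD11b- DCs, and from 22.1 to 29.7 CPM in WT and 19.3 to 28.6 CPM in Cbfb-cKO CD103-CD11b+ DCs. All 4 comparisons of groups overlapped. The 95% interval of the genotype difference was -0.80 to 0.20 on the log2 scale in CD103+CD11b- and -0.64 to 0.36 in CD103-CD11b+ DCs (edgeR FDR = 0.775 and 0.785). Its processed pseudogene S100a11-ps had no count in any sample.

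S100a8 and S100a9 had no count in any of the 6 CD103+CD11b- samples, which allows up to 0.223 CPM over the WT group and 0.269 CPM over the Cbfb-cKO group by counting error alone. S100a8 in CD103-CD11b+ DCs was 1.6, 2.3 and 0.3 CPM in WT and 0.9, 0 and 3.6 CPM in Cbfb-cKO samples. S100a9 was 0.2, 3.0 and 3.8 CPM in WT and 4.9, 1.7 and 0 CPM in Cbfb-cKO samples. The whole signal was 27 counts of S100a8 and 52 of S100a9, and in both genotypes the sample with the highest level of one was not that with the highest level of the other. Both genes passed the filter on counts through CD103-CD11b+ samples alone, so no test between subsets is given for them. The genotypes overlapped in CD103-CD11b+ DCs.

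Of 12 neutrophil genes, summed levels were 3.9 to 24.7 CPM in the CD103+CD11b- samples, 57.0 to 186 CPM in WT and 213 to 339 CPM in Cbfb-cKO CD103-CD11b+ samples. Of these genes 8 were tested. Between subsets Mmp9, Cxcr2, Csf3r and Ltf were higher by edgeR's test in CD103-CD11b+ DCs of WT mice (where 11.8% of all genes were higher) and of Cbfb-cKO mice (where 9.26% were). Mmp8 is left out of this, since it passed the filter on counts through CD103-CD11b+ samples alone. Between genotypes Csf3r was higher in Cbfb-cKO CD103-CD11b+ DCs (log2 fold change 1.44, edgeR FDR = 0.0353). Ltf ran the other way, with means of 7.39 CPM in WT and 1.99 CPM in Cbfb-cKO samples. It had an unadjusted edgeR p under 0.05 and was not called. Mmp8, Ly6g, Ngp, Camp and Lcn2 also had lower means in Cbfb-cKO samples of this subset. In the CD103-CD11b+ samples the sums came mostly from Mmp9 and Csf3r. Cxcr2, the receptor for neutrophil-attracting chemokines, had a mean of 5.65 CPM in WT and 14.3 CPM in Cbfb-cKO CD103-CD11b+ DCs, Retnlg and Lcn2 reached up to 9.28 and 8.33 CPM in single samples, Ly6g was at or below 0.291 CPM in every sample, and Elane was at 0 in all 12. The part of neutrophils in the counts of S100a8 and S100a9 was not tested.

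**Figure D3:**
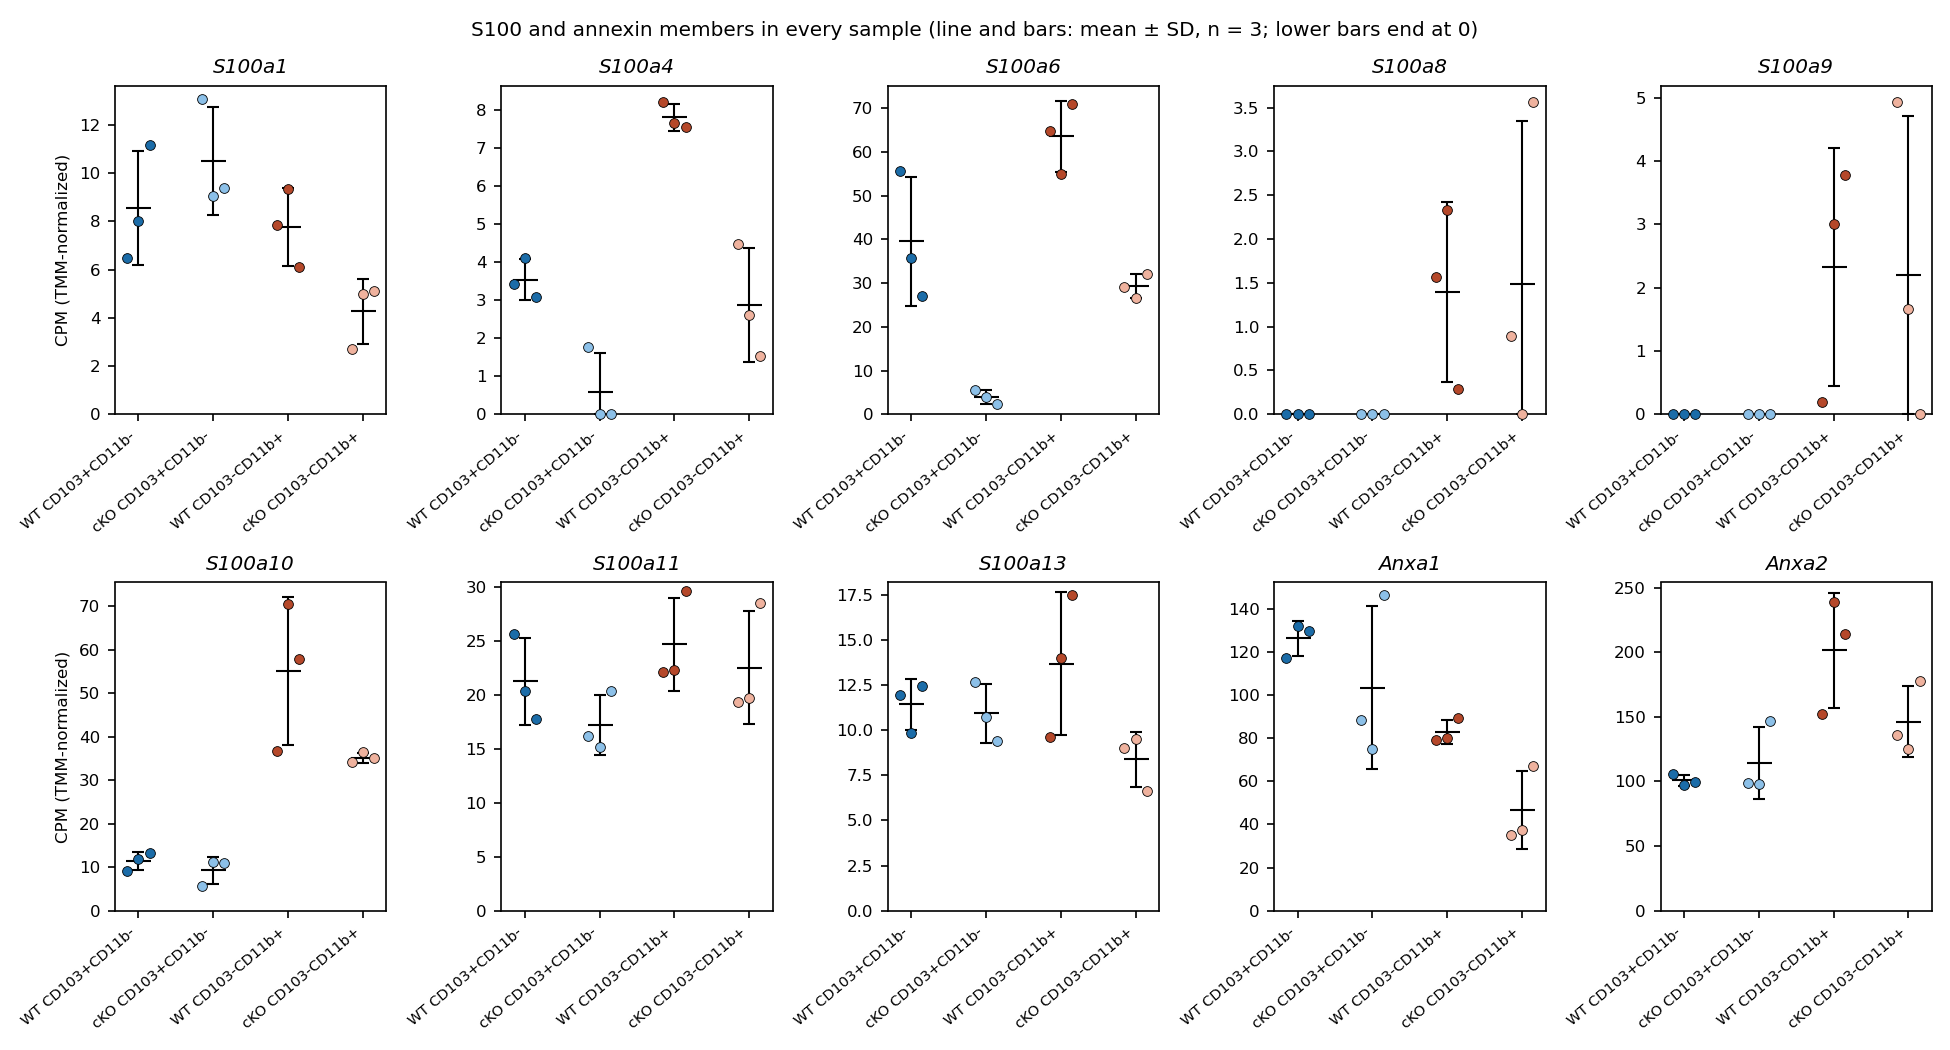
Level of each of the 10 members in CPM in every sample, with the mean and SD of the 3 samples of a group as a line and bars, and bars that would pass below 0 ending there; each panel has its own axis from 0. The 3 Cbfb-cKO CD103+CD11b- samples lie between 2.3 and 5.5 CPM for S100a6, and S100a10 separates the subsets in both genotypes.

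Over the members, genotype and subset gave different pictures. Between genotypes of CD103-CD11b+ DCs 0 of 10 members differed by edgeR's test, where 1.61% of all tested genes did, and DESeq2 called 1, S100a6. Of the 10 log2 fold changes 9 were negative, with a median of -0.66 against -0.06 over all tested genes, and 6 had an unadjusted p under 0.05 (S100a1, S100a6, S100a10, S100a13, Anxa1 and Anxa2), as did 17.4% of all tested genes. In 6 members (S100a1, S100a4, S100a6, S100a10, S100a13 and Anxa1) every Cbfb-cKO value was below every WT value, and groups did not overlap in either direction for 20.1% of all genes. For CD103+CD11b- DCs 2 members did not overlap, S100a4 and S100a6, against 18.1% of all genes. There 6 log2 fold changes were negative and 2 were positive, and S100a8 and S100a9 had no count in either group. Marker genes of other cells also differed between genotypes of CD103-CD11b+ DCs. The epithelial sum was 112 to 179 CPM in WT and 40.7 to 67.3 CPM in Cbfb-cKO samples, with a list median log2 fold change of -1.17, and of these genes edgeR called 0 (Epcam, Vil1, Krt8 and Krt18 had an unadjusted p under 0.05) and DESeq2 called Epcam and Krt8. By edgeR's test the macrophage gene Adgre1 (1.93, FDR = 0.0336), the B-cell gene Ms4a1 (3.72, FDR = 0.00455) and Csf3r were higher in Cbfb-cKO samples, and Itgae, the gene of CD103, was lower (-1.89, FDR = 0.0301). The cDC2 gene Clec4a4 was also called higher, and DESeq2 called it and Itgam (means of 90.6 CPM in WT and 164 CPM in Cbfb-cKO samples). Their part in the members' values was not tested. Nothing is read from the shares of all genes about the list, since its genes were chosen with the values known.

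Between subsets in WT mice, 2 of 10 members were higher in CD103-CD11b+ DCs (11.8% of all genes) and 0 were lower (7% of all genes). Groups did not overlap for S100a4, S100a10, Anxa1 and Anxa2 (38.1% of all genes). S100a8 and S100a9 are left out of this, since they passed the filter on counts through CD103-CD11b+ samples alone. In Cbfb-cKO mice S100a6 and S100a10 were higher (9.26% of all genes) and S100a1 and Anxa1 lower (6.81%), 4 of 10 where 16.1% of all genes differed, and groups did not overlap for these 4 members (34% of all genes). A fit to the 6 Cbfb-cKO samples alone kept S100a6 and S100a10 of the 4. The comparisons share groups, so the same values stand behind several of them.

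**Figure D4:**
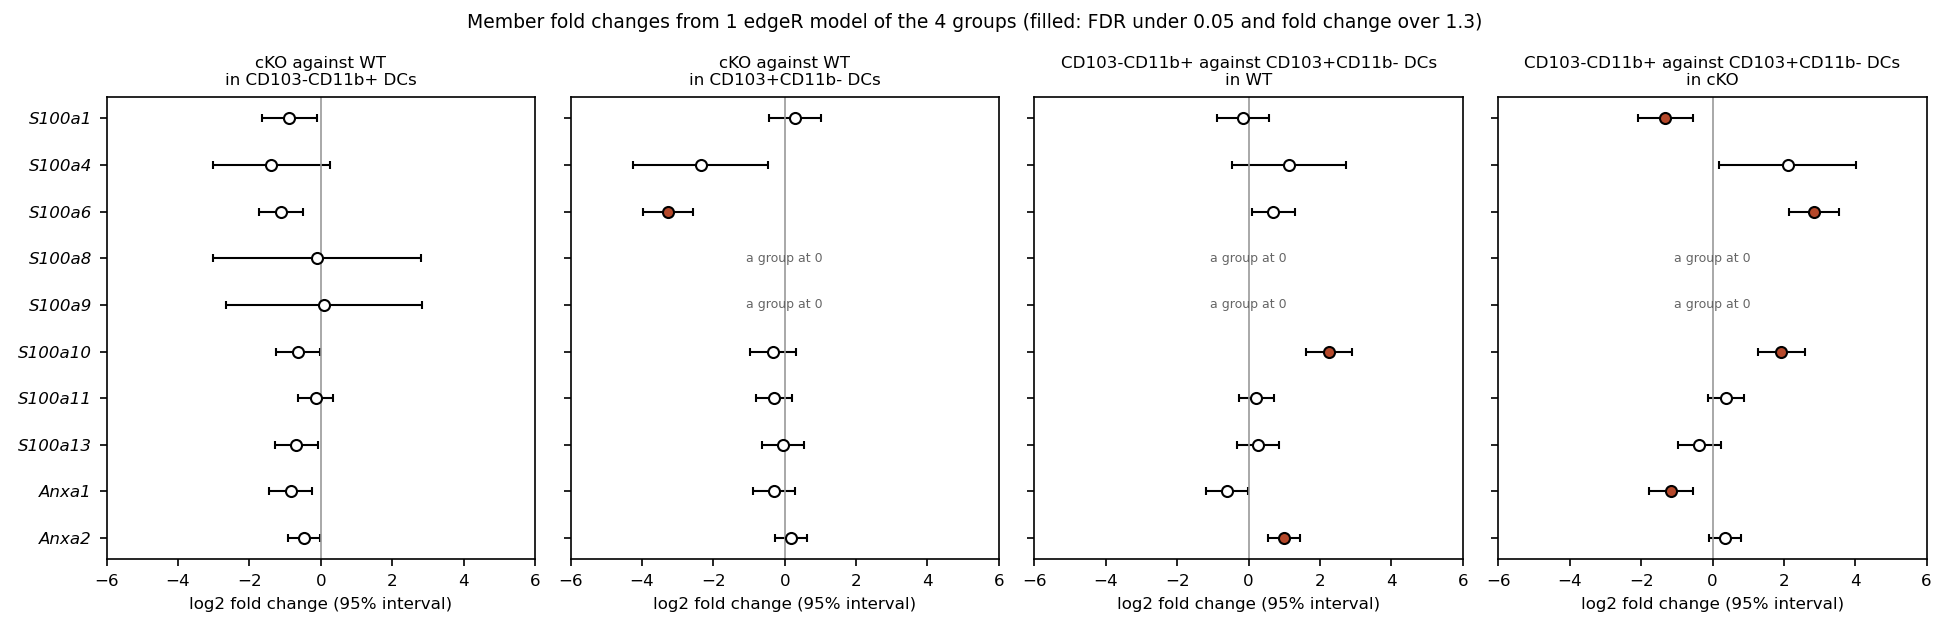
Log2 fold changes of the 10 members with 95% intervals in 4 comparisons from 1 edgeR model, filled where the FDR was under 0.05 and the fold change over 1.3; no value is drawn where a group had no count. S100a6 at -3.27 is the filled point between genotypes in CD103+CD11b- DCs, and none is filled between genotypes in CD103-CD11b+ DCs.

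Other S100 genes were scarcely counted. Of 10 listed, 4 passed the filter on counts, and S100a16 was the one with levels above 10 CPM. S100a16 was 0.7, 1.4 and 5.2 CPM in WT CD103+CD11b- DCs and 17.8, 48.6 and 41.9 CPM in WT CD103-CD11b+ DCs, higher by 3.78 on the log2 scale (edgeR FDR = 0.00885). In Cbfb-cKO mice it was 2.4, 3.9 and 0.4 CPM against 10.1, 16.7 and 5.1 CPM, where the log2 fold change of 2.18 had an edgeR FDR of 0.0751 and DESeq2 called it. Between genotypes in CD103-CD11b+ DCs the values of S100a16 did not overlap (-1.73, edgeR FDR = 0.229). S100a7a, S100b and S100g stayed at or below 7.7 CPM in every sample with no difference that passed.

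Of the other annexins, 9 of 10 were tested and 0 differed between genotypes by edgeR's test, with an unadjusted p under 0.05 for 3 in CD103-CD11b+ DCs (17.4% of all genes) and 1 in CD103+CD11b- DCs (10.5%). DESeq2 called 1, Anxa7 in CD103-CD11b+ DCs. Anxa6 and Anxa5, the most counted, ranged over the 12 samples from 313 to 554 CPM and from 119 to 214 CPM. Anxa7, which was first described as synexin, was lower in CD103-CD11b+ than in CD103+CD11b- DCs of both genotypes. It was 211, 202 and 187 CPM against 123, 153 and 151 CPM in WT mice (log2 fold change -0.49, edgeR FDR = 0.0125) and 202, 210 and 222 CPM against 103, 105 and 92.8 CPM in Cbfb-cKO mice (-1.07, FDR = 9.33e-05). Between genotypes in CD103-CD11b+ DCs Anxa7 did not overlap and stood just past the limit (-0.50, edgeR FDR = 0.0507). Anxa4 was lower in CD103-CD11b+ DCs of WT mice (-0.51, edgeR FDR = 0.036). For Anxa3, Anxa8, Anxa9, Anxa11 and Anxa13 no comparison passed, and Anxa8 had its counts almost wholly in 2 samples, at 12.5 and 7.9 CPM.

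All 12 listed partners and receptors were tested. Between genotypes 0 of them differed by edgeR's test, with an unadjusted p under 0.05 for 6 in CD103-CD11b+ DCs (17.4% of all genes) and 3 in CD103+CD11b- DCs (10.5%), and DESeq2 called 1, Ahnak, in each subset. Ahnak, a giant scaffold protein that binds the S100a10 and Anxa2 complex, was 713, 686 and 420 CPM in WT and 207, 298 and 137 CPM in Cbfb-cKO CD103+CD11b- DCs, without overlap and with a log2 fold change of -1.50 (edgeR FDR = 0.144). Ahnak in CD103-CD11b+ DCs was 463, 1491 and 1351 CPM in WT and 437, 585 and 408 CPM in Cbfb-cKO samples (-1.21, edgeR FDR = 0.163). Plgrkt, the gene of a plasminogen receptor, had higher values in Cbfb-cKO than in WT CD103-CD11b+ DCs, at 78.4, 78.0 and 89.7 CPM against 53.6, 66.0 and 48.9 CPM, without overlap (0.55, edgeR FDR = 0.136). Ager, the receptor RAGE for several S100 proteins, was 6.3, 6.4 and 4.6 CPM against 2.9, 4.0 and 3.5 CPM there, again without overlap (0.75, edgeR FDR = 0.218).

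Between subsets in WT mice 3 of the 12 partners were higher in CD103-CD11b+ DCs (11.8% of all genes) and 0 were lower (7%). Plat, the gene of tissue plasminogen activator, was 4.8, 2.7 and 29.3 CPM in CD103+CD11b- and 48.5, 290 and 451 CPM in CD103-CD11b+ DCs (log2 fold change 4.34, edgeR FDR = 0.0136). Tlr4, a receptor for S100a8 and S100a9, was 3.1, 3.0 and 6.8 CPM against 10.8, 23.7 and 44.2 CPM (2.57, edgeR FDR = 0.0127), and Dysf, the membrane repair gene dysferlin, was higher by 4.73 (edgeR FDR = 0.0261). In Cbfb-cKO mice Plat (3.91, edgeR FDR = 0.0268) and Tlr4 (2.79, FDR = 0.0111) were higher again, 2 of 12 where 9.26% of all genes were, and Dysf did not pass (3.80, FDR = 0.0633), whereas DESeq2 called Ahnak, Plat, Tlr4 and Dysf. Plat and Dysf varied widely within WT CD103-CD11b+ DCs, with Dysf at 162, 551 and 101 CPM. Over the same 3 samples the stromal sum was 883, 2296 and 2176 CPM and the macrophage sum was 218, 408 and 156 CPM. The part of either was not tested.

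The other receptors and binding proteins gave no call in the 4 comparisons of groups by edgeR's test, and DESeq2 called Bsg between subsets in WT mice. Fpr2, a receptor of Anxa1, was 2.7, 1.8 and 1.0 CPM in WT and 0, 0.7 and 0 CPM in Cbfb-cKO CD103+CD11b- DCs (log2 fold change -2.61, edgeR FDR = 0.348), and 7.6, 2.3 and 3.5 CPM against 0.2, 1.0 and 1.0 CPM in CD103-CD11b+ DCs (-2.68, FDR = 0.144). The genotypes did not overlap in either subset at these low levels. Fpr1 had counts in 4 samples only. Over the 12 samples Ager lay between 2.9 and 8.4 CPM, Plgrkt between 48.9 and 93.2 CPM, S100pbp, a gene named for S100P binding, between 67.5 and 155 CPM, Bsg (basigin, a receptor of S100a9) between 94.0 and 167 CPM, and Cacybp, the calcyclin-binding protein, between 26.0 and 70.0 CPM. Myh9, the non-muscle myosin heavy chain bound by S100a4, was abundant at 1307 to 2204 CPM and its log2 fold change between genotypes was 0.16 in CD103+CD11b- and 0.14 in CD103-CD11b+ DCs (edgeR FDR = 0.876 and 0.727).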

How the data were processed

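RNA of sorted DCs was sequenced as full-length cDNA libraries from small numbers of cells. Reads were trimmed with Trim Galore, mapped with STAR (version 2.7 in the submitters' processing notes), cleared of low-quality alignments and PCR duplicates, and counted per gene without strand by htseq-count; the authors deposited these raw counts, 1 file per sample. Removing duplicates can lower counts of short, abundant transcripts, which was not tested.

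Counts per gene were tested with edgeR 4.0.16 (R 4.3.3, limma 3.58.1) by TMM scaling and the quasi-likelihood F-test in 1 model of the 4 groups, for the genes that reached 5 counts in 1 or more of 12 samples, with Benjamini-Hochberg adjustment over 20580 genes. Standard errors are the absolute log2 fold change over the square root of F. Gene names and exons were from GENCODE M21 (GRCm38), which matched 99.8% of the identifiers. Lines that name no gene were left out: 59.7% to 66.1% of counted reads were on no feature and 1.21% to 1.52% were ambiguous. Figures and tables used Python 3.11.15, pandas 2.3.3 and matplotlib 3.10.9. The script was tested on simulated counts of the comparison of genotypes in CD103-CD11b+ DCs, with 200 genes changed in each run. It recovered 16.5% of changes of 2 times and 81.5% of changes of 5 times. A missing call is therefore no evidence that a gene did not change.

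All 10 members, the listed other S100 genes, annexins, partners and receptors that passed the filter, and for each member the 3 genes most like it over the samples were named. Members and lists were chosen with earlier results of these data known. Epcam, Xcr1, Itgam and single cDC2 and neutrophil markers were named from the marker lists, some after their values were seen. Replicates were counted as separate samples; the study took the 3 samples of a group from different mice. Same-numbered samples deviated together in Cbfb-cKO mice between the subsets (r from 0.112 to 0.354), and no label pairs them. Samples of unlike number reached r = 0.0815 there. Both replicate 3 samples, with r = 0.354, had the fewest counts of their groups, so a shared mouse and a shared depth cannot be told apart. In the other 3 pairs of groups 1 or more correlations of same-numbered samples were below 0.1. Intervals and floors from counts cover counting error only. Alternatives were other filters, RLE scaling, DESeq2 1.42.0, fits to the compared samples, replicate blocks, no fold limit and leaving out each sample.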

Additional observations from a re-analysis of the deposited data

Results flagged for a closer look

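The genotype effect on S100a6 differed between the subsets by 2.14 on the log2 scale in a test of the difference itself (edgeR FDR = 0.0494). Cbfb-cKO values were below WT values in both subsets, with log2 fold changes of -3.27 (CD103+CD11b-) and -1.12 (CD103-CD11b+), and the difference between these values lost its call on leaving out any of 11 of the 12 samples, with RLE scaling (FDR = 0.0559) and with replicate blocks set within genotype (FDR = 0.058).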

How the results depend on the processing

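The 8 fits of S100a8 and S100a9 in which a group had no count are not in the following tally of the other 42. Of the values refitted without 1 sample, 471 kept direction and side of the threshold, 13 turned direction, 17 lost a call and 3 gained one, and of those refitted under other settings 289 kept both, 4 lost a call and 8 gained one. In CD103-CD11b+ DCs the count of members that differed between genotypes was 0, and it was 1 with 5 or more counts in every sample, 1 with DESeq2 and 2 with the replicate number as a block, and 0 to 0 on leaving out single samples. In CD103+CD11b- DCs it was 1 and ranged from 1 to 2. For the difference of the genotype effects it was 1, and it was 0 with RLE scaling and 0 with a replicate block within genotype, and ranged from 0 to 1. Between subsets it was 2 in WT mice and 1 to 3 without single samples. The replicate block within genotype called S100a10, Anxa1 and Anxa2 there. S100a9 is left out of this, since it passed the filter on counts through CD103-CD11b+ samples alone. In Cbfb-cKO mice the count was 4, with 5 by DESeq2 (S100a4 added), 2 in a fit to the samples compared and 2 to 4 without single samples. The block changed no call of the other members given, and the causes were not tested.

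Directions that turned did so on leaving out a sample, in values that never passed the test. The ranges for genotype in CD103-CD11b+ DCs were -1.54 to 0.57 for S100a8, -1.16 to 0.70 for S100a9 and -0.34 to 0.027 for S100a11. They were -0.18 to 0.035 for S100a13 and -0.033 to 0.28 for Anxa2 in CD103+CD11b- DCs, -0.035 to 0.32 for S100a11 in the difference of genotype effects, and -0.33 to 0.031 for S100a1 and -0.0056 to 0.41 for S100a13 between subsets in WT mice.

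Over all genes, the number that differed between genotypes in CD103-CD11b+ DCs was 331, against 27 in a fit to the samples compared, 573 with 5 or more counts in every sample, 849 with a block and 1108 with DESeq2. In CD103+CD11b- DCs it was 210, against 320 without the filter, 522 with a block and 641 with DESeq2. For the difference of effects it was 134, against 205, 330 (328 with the block within genotype) and 498. On leaving out single samples these counts ranged from 121 (without Cbfb-cKO CD103-CD11b+ replicate 2) to 517 (without WT CD103-CD11b+ replicate 1), from 46 (without WT CD103+CD11b- replicate 1) to 241, and from 29 (without Cbfb-cKO CD103+CD11b- replicate 1) to 210 (without WT CD103-CD11b+ replicate 1), and moved by over 1.5 times for 9, 7 and 11 of the 12 samples. Between subsets they ranged from 1410 (without WT CD103+CD11b- replicate 2) to 4373 in WT and from 2124 (without Cbfb-cKO CD103+CD11b- replicate 1) to 3638 in Cbfb-cKO mice, around 3860 and 3307. Values of S100a4, S100a8 and S100a9 rested on 180, 27 and 52 counts over the 12 samples, which limits their precision.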

Other observations

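The genes whose log2 CPM was most like that of a member over the 12 samples were taken from 10683 or, for S100a1, S100a4, S100a8 and S100a9, 10684 genes with a mean of at least 10 CPM. For S100a6 these were Tlr5, the flagellin receptor (Pearson's r = 0.986), Ctnnd2 (0.975) and I830077J02Rik (0.965). For S100a10 they were Maml1 (0.985), Ddit4 (0.983) and Ksr1 (0.977), and for Anxa2 Ier2 (0.965), Anapc5 (0.930) and Msn (0.922). Anxa1 was closest to Agpat5 (0.936), Osbpl9 (0.934) and Reep5 (0.933), and S100a11 to Hnrnpl (0.935), Aes (0.910) and Ctsz (0.901). For S100a4 they were Rasgrf2 (0.962), Trim65 (0.959) and Pxdc1 (0.934), for S100a1 Wdfy3 (0.903), Nlgn2 (0.895) and Lrp5 (0.891), and for S100a13 Spata6 (0.917), Lgalsl (0.911) and Sept8 (0.907). For S100a8 they were Pfkl (0.870), Timd4 (0.869) and Mef2d (0.848), and for S100a9 Cdk17 (0.935), Zfp41 (0.908) and Psmd9 (0.907), from few counts. The 12 samples share 4 groups and their depth, so the values describe likeness over these libraries.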
